A study of Mus musculus with 4 samples.

Results

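The chromatin around 10 genes that receive and carry out the canonical Wnt signal was examined in WT and Tet2 KO myoblasts. They were the receptors Fzd1, Fzd2 and Fzd7, the coreceptors Lrp5 and Lrp6, the signal transducer Ctnnb1, the feedback inhibitor Axin2, and the transcription factors Lef1, Tcf7l1 and Tcf7l2. Every listed ATAC-seq peak that shared at least 1 bp with the stretch from 50 kb upstream of the start of a gene to 50 kb past its end was taken (mouse build mm9, GENCODE release M1). This gave 42 of 29611 peaks, namely 39 of the 25775 WT peaks and 3 of the 3836 Tet2 KO peaks, in windows of 1.77 Mb in all.

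ATAC-seq uses the transposase Tn5 to cut open DNA and tag it with adapters, and a peak is a place where the tagged fragments pile up above the local background. Chromatin accessibility was profiled in 2 WT and 2 Tet2 KO samples of C57BL/6 mice, and 1 peak list of each genotype was analysed. Satellite cells of hindlimb muscle were sorted as Integrin a7+ CD34+ cells negative for CD45, CD11b, CD31 and Sca1, cultured for at least 3 days until they were MyoD+ myoblasts, and 5000 cells went into each library. The Tet2 KO mice carried a constitutive deletion of exon 3, so every cell type of the animal lacked it. As there was 1 list per genotype, no difference between WT and Tet2 KO was tested. In bulk cells, a smaller share of cells with open chromatin and less open chromatin in each cell cannot be told apart.

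In canonical Wnt signaling, a secreted Wnt protein binds a Frizzled receptor and its coreceptor Lrp5 or Lrp6. The destruction complex, in which Axin2 is a scaffold, then stops degrading β-catenin (the product of Ctnnb1), which enters the nucleus and binds TCF/LEF proteins on DNA. In muscle the pathway acts on satellite cells and on the differentiation of their progeny, and Fzd7 is known there as a receptor for Wnt7a.

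The most frequent local background of each list was taken as the genome-wide one. It came to 0.649 fragments for WT and to 1.38 for Tet2 KO, a factor of 2.13. Total read numbers are not known, so depth and enrichment cannot be told apart. The lists also ended at different limits. The smallest WT -log10 q was 2.18, while 55 Tet2 KO peaks had a -log10 q under 2 and the smallest Tet2 KO -log10 p was 4.01. Peak numbers of the caller ran to 35482 in WT and 8239 in Tet2 KO, so 27.4% and 53.4% of the called peaks were not listed. Of 8 myoblast marker genes, 3 had a peak at their own promoter in both lists (Myod1, Des and Chrna1), and the windows of all 8 held 53 WT and 15 Tet2 KO peaks, with 0 at Myf5. Of 8 markers of leukocytes, endothelial cells, Sca1+ and fibro-adipogenic cells and Schwann cells, 1 had a WT promoter peak (Pecam1) and 0 had a Tet2 KO promoter peak. Their windows held 19 WT and 5 Tet2 KO peaks, with 0 at Ly6a and Pdgfra. The window of Tet2 itself held 4 WT peaks and 0 Tet2 KO peaks, which does not check the deletion.

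The WT list had a peak at the own promoter of 5 of the 10 genes. A promoter peak had its centre between 1000 bp upstream and 100 bp downstream of a transcript start. The sequences of 4 of these peaks outside annotated exons are shown because they hold the CpG sites that TET enzymes and DNA methylation act on. They were read from the NCBIM37 genome (mm9) on the strand of the gene, with each CpG in capitals. The stretches were chr5:4758217-4758321 (minus strand) for Fzd1, chr1:59538752-59538937 (plus) for Fzd7, chr6:72739249-72739389 (minus) for Tcf7l1 and chr19:55816098-55816299 (plus) for Tcf7l2.
Fzd1 promoter: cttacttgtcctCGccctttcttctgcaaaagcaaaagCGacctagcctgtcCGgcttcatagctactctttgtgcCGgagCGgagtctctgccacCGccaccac
Fzd7 promoter: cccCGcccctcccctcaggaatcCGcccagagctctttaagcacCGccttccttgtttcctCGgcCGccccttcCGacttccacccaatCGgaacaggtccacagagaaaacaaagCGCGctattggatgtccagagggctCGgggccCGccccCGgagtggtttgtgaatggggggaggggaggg
Tcf7l1 promoter: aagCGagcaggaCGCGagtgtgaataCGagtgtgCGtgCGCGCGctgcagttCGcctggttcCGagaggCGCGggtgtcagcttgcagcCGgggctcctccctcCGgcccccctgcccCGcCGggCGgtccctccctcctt
Tcf7l2 promoter: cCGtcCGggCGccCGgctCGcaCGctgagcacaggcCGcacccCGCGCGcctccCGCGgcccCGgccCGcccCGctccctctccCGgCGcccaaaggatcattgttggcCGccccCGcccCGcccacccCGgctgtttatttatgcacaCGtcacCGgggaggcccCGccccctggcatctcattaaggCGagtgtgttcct

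The printed Tcf7l2 stretch had 25 CpG sites in 202 bp and that of Tcf7l1 had 17 in 141 bp. The Fzd7 stretch had 12 in 186 bp and that of Fzd1 had 6 in 105 bp. The Fzd1 stretch is only the part of its 401 bp peak upstream of the start. It holds neither the WT summit nor any of the Tet2 KO peak, and the whole Fzd1 peak had 32 CpG sites. Thus, of these 4, the promoter stretches of the transcription factors were the more CpG-dense ones.

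Most WT peaks of the windows lay away from promoters. For 6 genes the distal peak (outside promoters and exons) with the highest -log10 q is shown, since a short motif lay inside it. Capitals mark matches to CTTTGAT or CTTTGAA (the core bound by TCF/LEF proteins), TGAGTCA or TGACTCA (bound by the AP-1 factors Fos and Jun) and CAGCTG (an E box that MyoD can bind), searched on both strands. The stretches were chr11:102505194-102505468 (plus strand, 39.5 kb downstream of the Fzd2 start), chr19:3681383-3681682 (minus, intron 1 of Lrp5), chr11:108841861-108842148 (plus, 60.3 kb downstream of the Axin2 start), chr3:130788273-130788478 (plus, 25.04 kb upstream of Lef1), chr6:72690612-72690803 (minus, intron 3 of Tcf7l1) and chr19:55856197-55856496 (plus, intron 3 of Tcf7l2). The Lrp5 and Tcf7l2 stretches are the 300 bp around the summit.
Fzd2 downstream: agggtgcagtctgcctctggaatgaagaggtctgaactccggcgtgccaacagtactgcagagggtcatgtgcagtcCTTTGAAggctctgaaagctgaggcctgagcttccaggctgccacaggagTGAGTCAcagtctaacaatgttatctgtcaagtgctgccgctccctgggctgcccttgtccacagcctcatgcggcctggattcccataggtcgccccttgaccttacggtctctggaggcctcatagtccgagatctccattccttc
Lrp5 intron: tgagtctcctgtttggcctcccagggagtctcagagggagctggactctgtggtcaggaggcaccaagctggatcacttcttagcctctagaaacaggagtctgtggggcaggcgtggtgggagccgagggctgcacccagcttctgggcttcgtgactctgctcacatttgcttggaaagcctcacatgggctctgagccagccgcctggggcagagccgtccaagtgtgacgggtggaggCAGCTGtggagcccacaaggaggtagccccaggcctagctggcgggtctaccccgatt
Axin2 downstream: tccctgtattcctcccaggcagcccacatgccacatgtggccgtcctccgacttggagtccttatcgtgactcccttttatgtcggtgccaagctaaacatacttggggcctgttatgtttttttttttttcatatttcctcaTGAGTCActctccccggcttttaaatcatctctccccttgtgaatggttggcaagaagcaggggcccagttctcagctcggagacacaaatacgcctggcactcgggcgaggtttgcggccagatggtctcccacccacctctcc
Lef1 upstream: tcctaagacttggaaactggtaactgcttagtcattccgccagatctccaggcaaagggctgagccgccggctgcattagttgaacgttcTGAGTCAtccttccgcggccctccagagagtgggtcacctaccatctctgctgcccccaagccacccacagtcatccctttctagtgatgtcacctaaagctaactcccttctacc
Tcf7l1 intron: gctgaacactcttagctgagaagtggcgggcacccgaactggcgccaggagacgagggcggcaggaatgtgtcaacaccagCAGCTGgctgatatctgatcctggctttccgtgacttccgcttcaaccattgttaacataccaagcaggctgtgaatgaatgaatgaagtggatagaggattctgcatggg
Tcf7l2 intron: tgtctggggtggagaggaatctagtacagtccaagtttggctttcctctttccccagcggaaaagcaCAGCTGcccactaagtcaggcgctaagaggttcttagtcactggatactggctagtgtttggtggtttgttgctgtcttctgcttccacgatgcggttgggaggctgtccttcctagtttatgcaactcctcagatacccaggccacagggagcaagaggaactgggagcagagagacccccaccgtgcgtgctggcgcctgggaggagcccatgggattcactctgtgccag

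Counted from the 5′ end of each stretch, the TCF/LEF match of the Fzd2 peak began at base 78 and its AP-1 match at base 128. AP-1 matches began at base 144 in the Axin2 peak and at base 91 in the Lef1 peak. E boxes began at base 243 in the Lrp5 peak, base 82 in the Tcf7l1 peak and base 68 in the Tcf7l2 peak. The 6 peaks were picked because they held a match, so that they do is no result. The distal Fzd7 peak of highest -log10 q held none and is not shown. Among the 6, only the Fzd2 peak held a TCF/LEF match.

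In WT, 39 peaks were spread over the windows of 9 of the 10 genes, with 12 at Tcf7l1, 11 at Tcf7l2, 5 at Lrp5, 4 at Fzd2, 3 at Fzd7, 1 each at Fzd1, Lrp6, Axin2 and Lef1, and 0 at Ctnnb1. In Tet2 KO there were 3 peaks, 2 at Lrp5 and 1 at Fzd1. Over all 22350 protein-coding genes with the same window rule, 74.3% had at least 1 WT peak and 31.4% had at least 1 Tet2 KO peak, beside 9 of 10 and 2 of 10 here. The windows thus held 13 WT peaks for each Tet2 KO peak, and the whole lists 6.72.

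Of the 39 WT peaks, 3 overlapped a Tet2 KO peak, a share of 7.69% (Wilson 95% interval 2.65 to 20.3, which covers counting error only). Over all WT peaks the share was 14.1%, which lies inside that interval, so the windows were not distinguishable from the whole list at this number of peaks. In the other direction, each of the 3 Tet2 KO peaks overlapped a WT peak, as did 96.8% of all Tet2 KO peaks. By class, 2 of the 10 WT promoter peaks were shared, beside 22.5% of all WT promoter peaks, and 1 of the 26 distal peaks, beside 11.0% of all WT distal peaks.

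**Figure D1:**
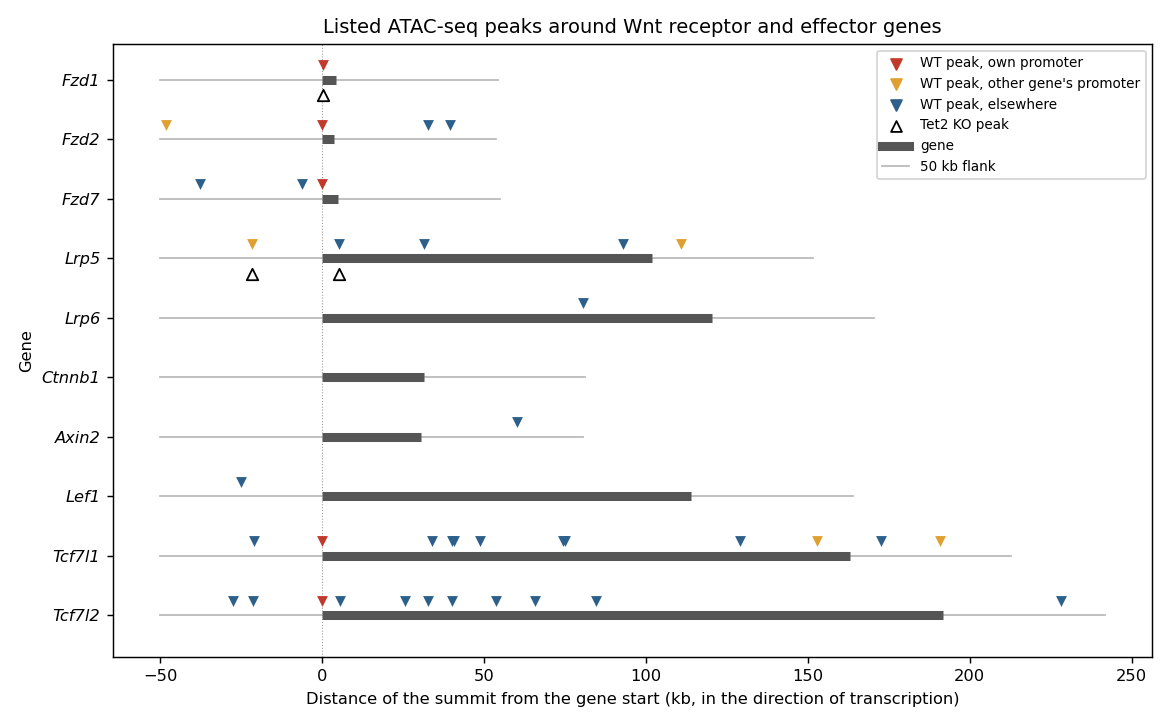
Position of each listed peak summit (x axis, kb from the gene start in the direction of transcription) for the 10 genes (y axis). Filled triangles above each line are WT peaks, open triangles below are Tet2 KO peaks, thick bars are genes and thin lines the 50 kb flanks. Tcf7l1 and Tcf7l2 hold 23 of the 39 WT peaks, and the 3 Tet2 KO peaks lie at Fzd1 and Lrp5.

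The 3 Frizzled receptors, the proteins that bind Wnt ligands at the cell surface, had 8 WT peaks and 1 Tet2 KO peak. All 3 are short genes, and each had a WT peak at its own promoter. The fold enrichment of a peak is the number of fragments at its summit divided by the local background, each with 1 added. It was 10.8 at the Fzd1 promoter, 10.4 at Fzd7 and 8.50 at Fzd2, with 21, 23 and 16 fragments at the summit. The median over all WT promoter peaks was 8.10, so all 3 lay above it.

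Fzd1 (chromosome 5, 4753842 to 4758216, minus strand) had the only member promoter listed in both genotypes. In WT the peak ran from 4757921 to 4758321 with 21 fragments at the summit (exact Poisson 95% interval 13 to 32.1) over a local background of 1.04. In Tet2 KO it ran from 4758070 to 4758175 with 10 fragments (4.80 to 18.4) over a background of 1.47. The Tet2 KO fold enrichment was 4.45 with a -log10 q of 2.73, beside 10.8 and 17.2 in WT. The raw fragment intervals of the genotypes overlapped, while the Tet2 KO library had the higher background. Per genome-wide background there were 32.4 fragments in WT and 7.23 in Tet2 KO, a ratio of 4.48.

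Fzd2 (chromosome 11, 102465745 to 102469372, plus strand) had 4 WT peaks and 0 Tet2 KO peaks. Besides its promoter peak, WT peaks lay 32.6 kb and 39.5 kb downstream of the start, in intergenic DNA, with folds of 8.77 and 10.6. The strongest peak of the window, with a fold of 12.4 and 22 fragments, lay 48.1 kb upstream at the promoter of Gpatch8. Thus only 1 of these 4 peaks had Fzd2 as its nearest protein-coding start.

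Fzd7 (chromosome 1, 59538991 to 59543791, plus strand) had 3 WT peaks and 0 Tet2 KO peaks. WT peaks upstream of the promoter lay 6.31 kb and 37.8 kb from the start, with folds of 8.51 and 9.52 and 15 and 19 fragments. All 3 had Fzd7 as the nearest protein-coding start. The peak 6.31 kb upstream held an AP-1 match and an E box, and the one 37.8 kb upstream held none of the searched motifs.

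The coreceptors, single-pass membrane proteins that bind Wnt together with a Frizzled, had 6 WT peaks and 2 Tet2 KO peaks, and neither had a listed peak at its own promoter. Lrp5 (chromosome 19, 3584825 to 3686564, minus strand) had 5 WT peaks, of which 2 lay at the promoters of the neighbours Ppp6r3 and 1810055G02Rik. Within the gene, WT peaks lay in intron 1 (fold 9.62), intron 2 (6.90) and exon 19 (11.5). The intron 1 peak, from 3681383 to 3681698, began 4866 bp from the Lrp5 start.

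The intron 1 peak of Lrp5 was 1 of the 2 in this window listed in both genotypes. It had 22 fragments in WT (13.8 to 33.3) and 17 in Tet2 KO (9.90 to 27.2), with folds of 9.62 and 6.52. The promoter of 1810055G02Rik, 21.7 kb upstream of Lrp5, had 21 fragments in WT (13 to 32.1) and 15 in Tet2 KO (8.40 to 24.7), with folds of 10.6 and 6.55. In both places the WT fold was the higher and the raw fragment intervals overlapped. Divided by the genome-wide background of its library, the intron 1 summit had 33.9 in WT and 12.3 in Tet2 KO, a ratio of 2.76. The 1810055G02Rik promoter had 32.4 and 10.8, a ratio of 2.99. This scale gave larger ratios than the fold, whose local backgrounds differed less.

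**Figure D2:**
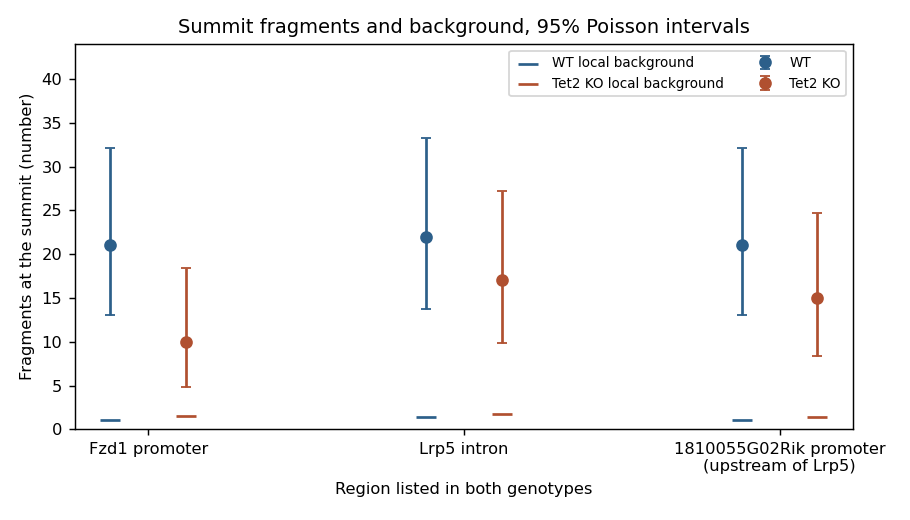
Fragments at the summit (y axis, number) of the 3 regions listed in both genotypes (x axis), with exact Poisson 95% intervals, WT in blue and Tet2 KO in red. Short horizontal lines are the local backgrounds. WT counts of 21 to 22 stand beside Tet2 KO counts of 10 to 17, over Tet2 KO backgrounds that are higher than those of WT.

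The WT fold was 2.42 times the Tet2 KO fold at the Fzd1 promoter, 1.61 times at the 1810055G02Rik promoter and 1.48 times in Lrp5 intron 1. Over all 3633 WT peaks with a Tet2 KO peak the median ratio was 1.89 (middle 50% from 1.61 to 2.22). Thus the Fzd1 ratio lay above that range and the Lrp5 intron ratio below it. All 3 Tet2 KO peaks lay wholly inside their WT peaks and covered 26.4% to 47.2% of them.

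Lrp6 (chromosome 6, 134396494 to 134516983, minus strand) had 1 WT peak, in exon 8, with a fold of 7.88 and 12 fragments, and 0 Tet2 KO peaks. It lay 80.5 kb downstream of the start and held an E box. Ctnnb1 (chromosome 9, 120838334 to 120869625, plus strand), which encodes β-catenin, was the only member with no peak in either list. Of all protein-coding genes, 25.7% had no WT peak in the window. Axin2 (chromosome 11, 108781663 to 108812097, plus strand), a direct target of the pathway that restrains it, had 1 WT peak with a fold of 7.65 and 13 fragments, in intergenic DNA past the gene.

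The transcription factors, which bind β-catenin and the TCF/LEF motif, had 24 of the 39 WT peaks and 0 of the 3 Tet2 KO peaks. A count of 0 shared peaks of 24 allows a share of up to 12.5%, for counting error only. This limit is 3 counts of 24, an approximate upper 95% limit with no lower end, and not a Wilson interval. It is tighter than the Wilson intervals used elsewhere, so it does not place the 24 peaks below the list. The shared part was 14.1% of all WT peaks, 22.5% of WT promoter peaks and 11.0% of WT distal peaks. Whether the 24 peaks differ from the list was not tested. Their windows held 3.12 WT peaks per 100 kb, those of the receptors 2.56 and those of the coreceptors 1.42. Of the 24 peaks, 15 lay within the genes, and all 15 were in introns.

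Tcf7l1 (chromosome 6, 72576372 to 72739248, minus strand), which acts mostly as a repressor of Wnt targets, had 12 WT peaks with folds from 5.54 to 16.4 (median 7.64). Its promoter peak had a fold of 8.68 and 18 fragments. Intron 3 held 7 peaks between 33.9 kb and 129 kb from the start. The strongest peak of all 42, with a fold of 16.4, a -log10 q of 32.0 and 32 fragments, lay in intron 4. It was classed as a promoter peak of Gm15401, a gene on the opposite strand. That gene runs from 72579282 to 72587711. The peak, from 72586189 to 72586391, lay inside it, so the class rests on a transcript start within the gene. Another peak, with a fold of 6.50, lay at the shared promoter of Elmod3 and Retsat past the end of Tcf7l1. The remaining peaks lay 21.1 kb upstream (fold 7.02) and in an exon past the gene, nearest to the start of Tgoln1 (10.8).

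Tcf7l2 (chromosome 19, 55816300 to 56008144, plus strand), the TCF factor with known roles in metabolism, had 11 WT peaks with folds from 4.71 to 13.3 (median 8.08). All 11 had Tcf7l2 as the nearest protein-coding start. The promoter peak had a fold of 7.93 and 17 fragments, below the median of all WT promoter peaks, 8.10. Intron 3 held 6 peaks, among them the strongest distal peak of the 10 genes (chromosome 19, 55856197 to 55856508), with a fold of 13.3 and 27 fragments, and the weakest, with a fold of 4.71 and 8 fragments. The other 4 intron 3 peaks had folds from 5.45 to 9.60, so neighbouring peaks in 1 intron differed widely in strength. Peaks also lay 27.7 kb and 21.5 kb upstream (folds 9.96 and 9.80), in intron 4 (5.71) and 228 kb downstream of the start, past the gene (10.9).

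Lef1 (chromosome 3, 130813389 to 130927274, plus strand) had 1 WT peak, 25.04 kb upstream, with a fold of 11.2 and 19 fragments, and 0 Tet2 KO peaks. Between 130788478 and 131006073, which covers the start and the whole gene, no WT peak number was skipped, so no WT peak had been called there. Lef1 thus differed from Tcf7l1 and Tcf7l2, whose starts both held a WT peak.

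**Figure D3:**
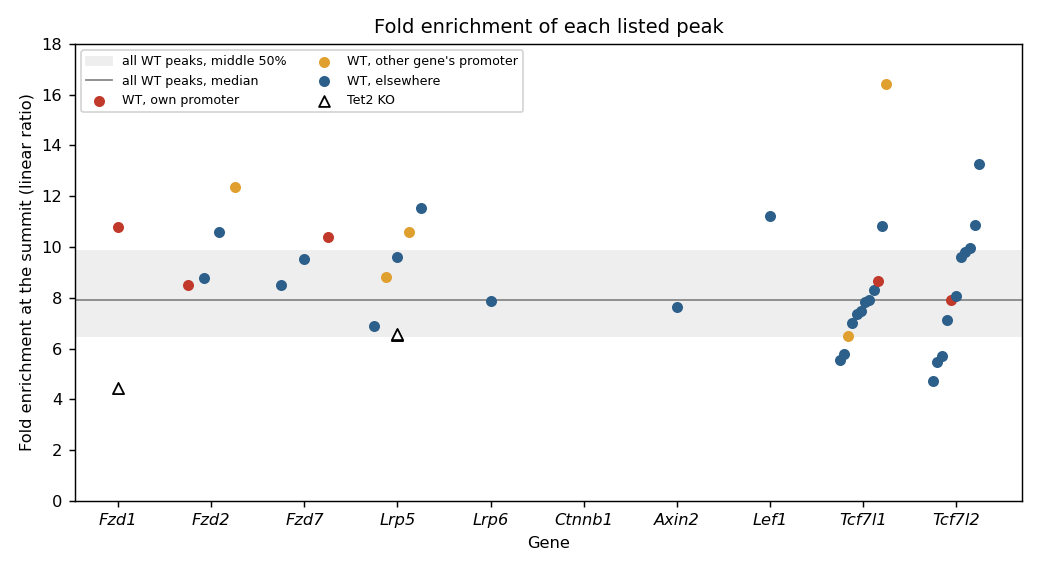
Fold enrichment at the summit (y axis, linear ratio) of each listed peak, by gene (x axis). Filled points are WT peaks coloured by position, open triangles are Tet2 KO peaks, and the grey line and band are the median (7.89) and the middle 50% (6.48 to 9.84) of all WT peaks. The WT points run from 4.71 to 16.4 and the Tet2 KO points from 4.45 to 6.55.

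Over the 39 WT peaks the median fold was 8.51 (middle 50% from 7.41 to 10.5) and the median -log10 q was 12.1, beside 7.89 and 10.6 over all WT peaks. The median was 18 fragments at the summit, beside 16. Own promoter peaks had a median fold of 8.68, peaks at promoters of other genes 10.6, and distal peaks 7.99, beside 7.88 over all WT distal peaks. The median of the members thus lay within the middle 50% of the WT list, from 6.48 to 9.84.

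Tcf7l1 and Tcf7l2 held many peaks for genes of their length. Among protein-coding genes within 25% of the length of Tcf7l1, 2.51% of 918 had at least 12 WT peaks, and among those like Tcf7l2, 6.25% of 752 had at least 11. The median gene had 2 WT peaks in its window (middle 50% from 0 to 4). Lrp6 and Lef1 are also long, and 85.1% and 85.6% of genes of like length had at least their 1 peak. Of the 12 peaks at Tcf7l1, 8 had Tcf7l1 as the nearest protein-coding start, and 10 remained when peaks within 500 bp were merged. At a -log10 q of at least 10, Tcf7l1 and Tcf7l2 each had 7 WT peaks. These counts describe the WT list only and carry no test.

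**Figure D4:**
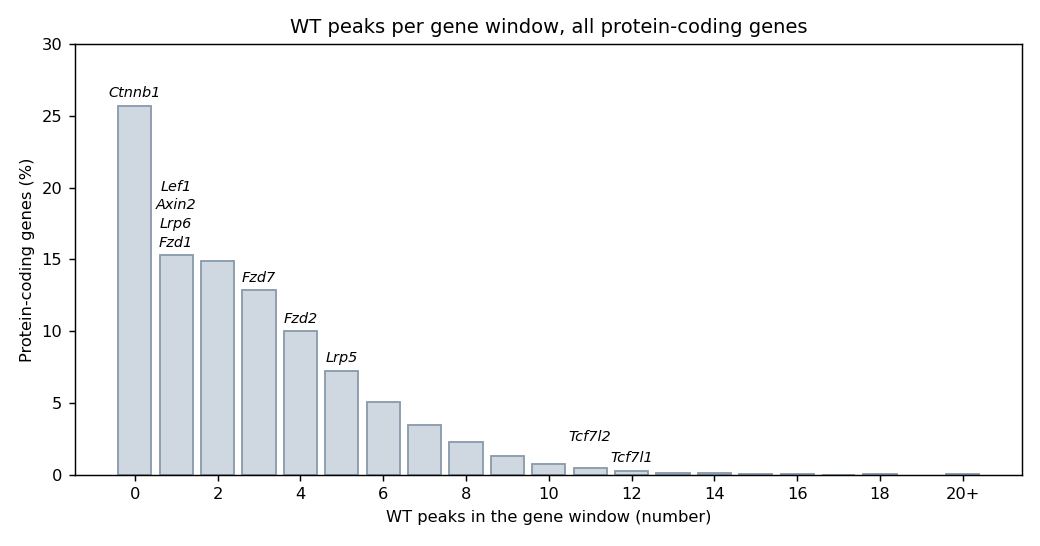
Share of all 22350 protein-coding genes (y axis, %) by the number of WT peaks in the gene window (x axis), with the members named above their bar. Tcf7l2 (11 peaks) and Tcf7l1 (12 peaks) lie in the thin right end, where 1.16% of genes had at least 11 and 0.711% at least 12, and Ctnnb1 lies in the bar at 0.

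A WT peak at the own promoter was listed for 5 of 10 members and a Tet2 KO peak for 1 of 10. Over all protein-coding genes the shares were 30.4% and 7.94%. The members had CpG-rich starts, with observed over expected CpG ratios from 0.531 (Fzd2) to 1.13 (Lrp6), and of the 9747 genes with a ratio of at least 0.531, 52.0% had a WT promoter peak, close to the 5 of 10 seen here. The ratios of the 5 with a promoter peak were 0.531 (Fzd2), 0.652 (Fzd1), 0.705 (Fzd7), 0.813 (Tcf7l1) and 0.891 (Tcf7l2). Those without were 0.617 (Lrp5), 0.813 (Lef1), 0.929 (Axin2), 1.01 (Ctnnb1) and 1.13 (Lrp6). The groups overlapped, and the 3 highest ratios belonged to genes without a promoter peak.

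Peak numbers skipped by the lists bear on what an absent peak means. At Ctnnb1 no Tet2 KO number was skipped over 486 kb around the gene, so no Tet2 KO peak had been called there, while 6 WT numbers were skipped over 286 kb. At the Lrp5 start, 0 Tet2 KO numbers were skipped over 26550 bp and 1 WT number over 26411 bp. Around the Lrp6 start 1 WT number was skipped and around the Axin2 start 2. An unlisted WT peak at the promoter of Ctnnb1, Lrp5, Lrp6 or Axin2 is therefore possible, and at Lef1 it is not.

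For the 36 WT peaks without a Tet2 KO peak, the surrounding Tet2 KO intervals skipped 37 numbers in all, 13 of them in the interval of 5398571 bp around Fzd7. None of the 36 lay in a Tet2 KO interval with 0 skipped numbers, beside 16.3% of 22024 such WT peaks genome-wide. If every unlisted Tet2 KO peak overlapped a different one of these WT peaks, at least 9 of the 12 at Tcf7l1, 6 of the 11 at Tcf7l2, 2 of the 3 at Lrp5 and 1 of the 4 at Fzd2 still had no called Tet2 KO peak. For Fzd7, Lrp6, Axin2 and Lef1 the numbers leave no such minimum. Under that condition, at least 18 of the 36 were without a called peak in the Tet2 KO library. A called peak that overlapped more than 1 WT peak would lower this number.

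The background also differed between the WT and the Tet2 KO list. At the genome-wide Tet2 KO background, 8 fragments at a summit were enough to reach the smallest -log10 p of the Tet2 KO list, 4.01. The fewest summit fragments in that list were 7. The 36 WT peaks without a Tet2 KO peak had 8 to 32 fragments in the WT library (median 18), and 7 of them had a higher fold than every shared WT peak. The part of the background and of the cutoffs in the 39 WT and 3 Tet2 KO peaks was not tested.

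Motifs were counted in the whole of each peak. Of the 26 distal WT peaks, 14 held an AP-1 match (53.8%, Wilson 95% interval 35.5 to 71.2), 11 an E box (42.3%, 25.5 to 61.1) and 2 a TCF/LEF match (7.69%, 2.14 to 24.1). Over all 17866 distal WT peaks the shares were 41.1%, 42.6% and 5.57%, each inside the interval of the members. The TCF/LEF matches lay in the Fzd2 peak 39.5 kb downstream and in a Tcf7l2 peak in intron 3, 32.7 kb from the start, and both peaks also held an AP-1 match. An AP-1 match and an E box occurred together in 5 of the 26 peaks, and 6 held none of the motifs. None of the 5 own promoter peaks held any of these motifs, which says only that these letters were not in these windows.

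**Figure D5:**
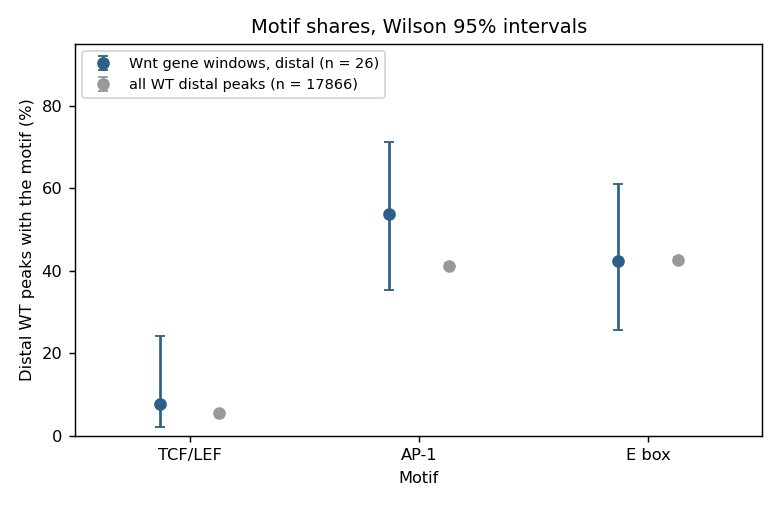
Share of distal WT peaks with each motif (y axis, %) for the 26 distal peaks of the Wnt gene windows (blue) and all 17866 distal WT peaks (grey), with Wilson 95% intervals. AP-1 reaches 53.8% beside 41.1%, the E box 42.3% beside 42.6% and TCF/LEF 7.69% beside 5.57%, and every grey point lies inside the blue interval.

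Since TET enzymes act on CpG sites, the distance from each motif to the nearest CpG was measured. Of 15 E boxes in the 39 WT peaks, 6 had a CpG within 10 bases, with a median distance of 14 bases. Of 16 AP-1 matches 5 did, with a median of 19.5 bases, and of 2 TCF/LEF matches 0 did. No such share over all WT peaks is given here, so these counts cannot be called particular to the windows. The E boxes printed for Lrp5 intron 1 and Tcf7l2 intron 3 both lay 8 bases from a CpG. Of these WT peaks, only that of Lrp5 overlapped a Tet2 KO peak. That Tet2 KO peak (3681460 to 3681608) did not reach the E box (3681435 to 3681440). The AP-1 match of the Lef1 peak lay 3 bases from a CpG and that of the Axin2 peak 7 bases.

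Other Wnt pathway genes were counted the same way, to place the 10 among them. Of 82 such genes, 68 had a WT peak in the window and 30 a Tet2 KO peak, with 232 WT and 36 Tet2 KO peaks in all. The shared part of their WT peaks was 15.5% (11.4 to 20.7), an interval that overlaps that of the 10 members. It was 22.7% (14.3 to 34.2) for 13 Notch pathway genes, 12.8% (5.98 to 25.2) for 13 TGF-beta pathway genes and 16.7% (10.9 to 24.6) for 11 growth factor receptors. The members had the lowest of these shares, within overlapping intervals.

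By role, 0 of 19 Wnt ligands had a WT peak at their own promoter, although 17 had a WT peak in the window, with 10 at Wnt7b. Of 18 secreted modulators and Kremen receptors 1 did (Sfrp1, which binds Wnt proteins), and the window of Kremen1, a Dkk receptor, held 11 WT peaks. Among 13 other receptors 6 did, and Fzd4 and Lgr4 also did in Tet2 KO. Of 16 cytoplasmic components 8 did, and Axin1 and Gsk3b, parts of the destruction complex, also did in Tet2 KO. Of 12 nuclear components 9 did, and 5 also did in Tet2 KO, namely the corepressors Tle1, Tle4, Ctbp1 and Ctbp2 and the β-catenin inhibitor Ctnnbip1. Of 4 genes of secretion and receptor turnover 1 did. In WT, 25 of the 82 genes (30.5%) had a peak at their own promoter, beside 30.4% of all protein-coding genes. Differences between the roles were not tested. In Tet2 KO, 11.0% of the 82 genes had a peak at their own promoter, beside 1 of the 10 members and 7.94% of all protein-coding genes.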

How the data were processed

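ATAC-seq was done on primary myoblasts, 2 WT and 2 Tet2 KO samples. Per the study's methods, the authors shortened 150 bp paired-end reads and aligned them to mm9 with Bowtie2. Reads of a mapping quality under 30 and duplicates (Picard) were dropped, and MACS2 was run on every sample. The submitters' processing notes also name CASAVA. The deposited tables used were 1 MACS2 peak list per genotype, assigned by their names, and no replicate is known. The score the authors deposited is 10 times the -log10 q (WT, all but 1 peak) or the -log10 p (Tet2 KO). The deposited fold column is a ratio of summit to local background, each with 1 added. Both the -log10 p and the -log10 q were deposited for the summit. The methods name a q cutoff that equals a -log10 q of 2, which 55 Tet2 KO peaks did not reach. How the listed part of the peaks was chosen is not given in the sources used here.

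Summit fragments were solved from the fold and the -log10 p (error under 0.001). The Axin2 peak had 2 solutions, and the one with the smaller error was used, with a background of 0.830 beside 0.649 for the genome. Windows, promoters and exons came from GENCODE M1, exon numbers from the longest coding transcript, and sequence from NCBIM37 (mm9). The sequence of 1 promoter peak is not reported here. Neighbouring lists were counted in the same windows. The CpG ratio was taken 1000 bp upstream to 100 bp downstream of the most CpG-rich coding start. The members and all gene lists were chosen with earlier results of these data known. Named were all 10 members, their own promoter peaks, shared peaks and strongest peaks, genes whose promoters held a peak in a window, and other Wnt genes with a Tet2 KO promoter peak or the most WT peaks in their list. The motif peaks, Sfrp1 and single distal peaks were chosen after their values were seen. With 1 list per genotype no test was made. In tests on simulated data, the summit fragments were recovered for 99.45% of 2000 peaks. Alternatives were other windows, stricter limits, other overlap and promoter rules, merged peaks and the window of the summit. The tools were pysam 0.24.0, matplotlib 3.10.9, scipy 1.17.1, pandas 2.3.3, numpy 2.4.6 and Python 3.11.15.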

Additional observations from a re-analysis of the deposited data

How the results depend on the processing

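With 10 kb upstream to the gene end as the window, the genes held 25 WT peaks, and with 100 kb on either side 60 WT and 6 Tet2 KO peaks. At a -log10 q of at least 10, 0 Tet2 KO peaks were left and the shared part of the WT peaks was 0, as it was when 50% of each peak had to overlap, so the 3 shared peaks are few and partly covered. The ratio of WT to Tet2 KO peaks ran from 9 (without Tcf7l1) to 19 and could not be computed at a -log10 q of at least 10. Without Tcf7l1, 27 WT peaks remained, with a shared part of 11.1%. Of 178 values of single genes 154 stayed within 1.5 times, 16 were lower and 8 higher. Many of these values were counts of 0, which a stricter limit cannot change. Leaving out Tcf7l1 also cannot change the counts of other genes, so the tally is no measure of stability. At a -log10 q of at least 10, Tcf7l1 had 7 WT peaks (12 without this limit) and Tcf7l2 7 (11). At 100 kb, Ctnnb1 had 4 WT peaks and 1 Tet2 KO peak.

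No paired analysis was possible because there was 1 peak list per genotype, with no replicate number. The depth behind each peak was 8 to 32 summit fragments in WT and 10 to 17 in Tet2 KO, so single fold values are imprecise. The library background and the listed part of the called peaks differed between the WT and the Tet2 KO list, and their part in the peak counts was not tested.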
